A study of Mus musculus with 3 samples.

Results

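The small heat shock protein genes measured here were *Hspb1*, *Hspb2*, *Hspb6*, *Hspb7*, *Hspb8* and *Cryab*. They are 6 of the 15554 rows of an expression table of NIH3T3 cells, an established line of mouse embryonic fibroblasts, and were found by their gene symbols. The family was chosen by the FPKM of its members in these same libraries and by the changes between them, so every value below is a description, and no test was made on it. The cells were kept in serum-free IMDM and were then left without stimulation (CTRL), stimulated with GDF15 at 100 ng/mL or stimulated with TGF-β at 4 ng/mL, for 24 h. For each treatment 3 RNA preparations were pooled into 1 stranded mRNA library, so there are 3 libraries and no replicates. The comparison asked how far the response to GDF15, a member of the TGF-β superfamily, was like that to TGF-β. Both stimuli were compared with the same CTRL library, so their changes are not independent of each other.

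Small heat shock proteins are chaperones that work without ATP. They share the α-crystallin domain, assemble into oligomers and hold unfolding proteins in a soluble state until the ATP-dependent chaperones take them over. Several members also bind actin filaments, intermediate filaments and filamins, and the family is best known from muscle, heart and lens. Heat shock factor 1 (*Hsf1*) induces some members, among them *Hspb1* and *Cryab*, under heat stress, while others are set mainly by tissue.

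The values are FPKM (fragments per kilobase of exon per 1e6 mapped fragments), which are per length and can be compared between genes. Depth was estimated from the steps of single fragments in the low values, at 18.4 (CTRL), 21.75 (GDF15) and 17.65 (TGF-β) in units of 1e6 fragments, and fragment numbers below are estimates from it. Intervals are 95% intervals of counting error only (exact Poisson formula for a level, exact binomial formula for a ratio). They were computed on the rounded fragment estimates and leave out the error of depth, transcript length and read assignment. They do not hold the spread between cultures, which 1 library per treatment cannot give. Of 9 fibroblast markers, 8 reached a mean FPKM of 1, and *Lum* was at or near 0. Of 8 skeletal muscle markers, *Acta1*, *Tnni2* and *Tnnt3* reached it, while *Myod1*, *Myog* and *Myf5*, which define the lineage, were listed at 0 in all libraries. No marker of cardiac muscle, lens, endothelium or epithelium reached it, and *Cd68* was the one leukocyte marker that did. Fewer cells of a type and less RNA per cell cannot be told apart in such bulk libraries.

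The family held both abundant and barely detected genes. *Hspb8* and *Cryab* together made up 97.9% of the summed FPKM of the members without stimulation, 96.3% with GDF15 and 97.4% with TGF-β. That sum was 129 FPKM without stimulation, 115 with GDF15 and 135 with TGF-β. From high to low, the order was *Hspb8*, *Cryab*, *Hspb6*, *Hspb2*, *Hspb1* and *Hspb7* in CTRL and GDF15, and *Cryab* came before *Hspb8* in TGF-β. The counting intervals of *Hspb8* and *Cryab* overlapped in CTRL and TGF-β and not in GDF15. Those of *Hspb6* and *Hspb2* overlapped in GDF15 and TGF-β and not in CTRL. Those of *Hspb2* and *Hspb1* overlapped in CTRL and in neither stimulated library. Those of *Hspb1* and *Hspb7* overlapped in CTRL and TGF-β and not in GDF15.

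**Figure D1:**
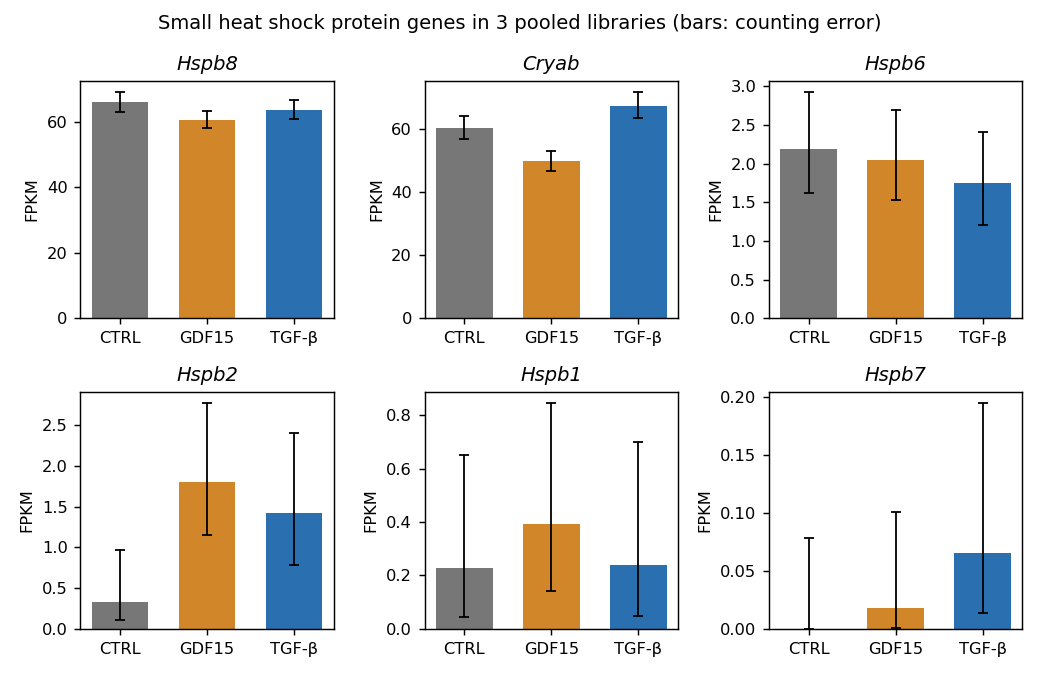
FPKM of each member (y axis, own scale per panel) in the CTRL, GDF15 and TGF-β libraries, with bars for the 95% counting interval of the estimated fragments. *Hspb8* and *Cryab* stood between 49.8 and 67.4 FPKM in every library, *Hspb2* had 0.336 FPKM in CTRL against 1.80 and 1.42 after stimulation, and *Hspb7* was below 0.1 throughout.

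Sequence upstream of the start is shown for the members with the highest and the lowest level that had a promoter entry with a heat shock element core, *Hspb8* and *Hspb1*. Each run is the 250 bases before the RefSeq start, 5′ to 3′ (RefSeq, GRCm38.p6), at chr5:135887669-135887918 on the plus strand for *Hspb1* and chr5:116422865-116423114 on the minus strand for *Hspb8*. Capitals mark the letters GAANNTTC, the palindromic core of the heat shock element that heat shock factors bind. The *Hspb8* run holds none, since its match lies past the start.
Hspb1: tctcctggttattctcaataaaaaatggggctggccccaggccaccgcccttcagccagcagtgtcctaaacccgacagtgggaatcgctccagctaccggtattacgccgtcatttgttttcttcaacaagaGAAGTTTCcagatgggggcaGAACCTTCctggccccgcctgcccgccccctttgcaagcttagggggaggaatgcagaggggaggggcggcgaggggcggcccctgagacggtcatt
Hspb8: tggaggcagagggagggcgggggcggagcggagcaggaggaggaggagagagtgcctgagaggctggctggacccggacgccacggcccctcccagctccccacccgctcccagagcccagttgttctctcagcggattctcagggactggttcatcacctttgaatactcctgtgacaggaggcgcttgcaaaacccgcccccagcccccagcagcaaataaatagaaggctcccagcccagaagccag

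The core was searched from 250 bases before to 50 bases after each start. It occurred in 2582 of 32851 RefSeq promoters of this length (7.86%), and the version GAAGTTTC in 398 of them (1.21%). Both strands were read, and the second pattern is a case of the first. *Hspb1* held the core at positions -117 and -97 from its start, the second start of *Hspb6* held it at -120, and *Hspb8* held it 2 bases past its start. *Hspb7* and the first start of *Hspb6* had no match in this window. The promoter set used here held no entry for *Hspb2* or *Cryab*, so neither was searched. The sites are shown with their neighbouring bases, at chr5:135887801-135887830 (plus strand) for *Hspb1*, chr7:30553170-30553199 (plus strand) for *Hspb6* and chr5:116422844-116422873 (minus strand) for *Hspb8*, again with the core in capitals.
Hspb1: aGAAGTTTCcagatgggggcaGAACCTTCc
Hspb6: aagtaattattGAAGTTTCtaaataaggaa
Hspb8: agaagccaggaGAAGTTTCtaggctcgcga

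The members with GAAGTTTC had levels from 0.229 FPKM (*Hspb1*) to 66.0 FPKM (*Hspb8*) in CTRL. The CArG box bound by serum response factor was in 1.63% of all promoters and in none of the windows of *Hspb1*, *Hspb6*, *Hspb7* and *Hspb8*. The letters GTCTAGAC, a palindrome that SMAD proteins bind, were in 0.213% of all promoters and in none of these windows. TATAAA was in 13.6% of all promoters and, among the members, in the second *Hspb6* window, at position -29. A match is a description of the letters and does not show binding.

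Changes are given on the log2(FPKM + 1) scale, as stimulated minus CTRL. The study called a gene differentially expressed past 2-fold, and its methods name no pseudocount. Here this was taken as a size over 1 on the log2(FPKM + 1) scale, which gave the study's numbers by GDF15, 45 genes with 33 higher. By GDF15, 1 of the 6 members (*Hspb2*) was over 2-fold, against 45 of all 15554 genes (0.289%), and 33 genes (0.212%) were over 2-fold in the same direction. By TGF-β, 0 of the 6 members were over 2-fold at this pseudocount, against 142 of all genes (0.913%), of which 90 were higher (0.579%). With the length trend removed, *Hspb2* was over 2-fold by TGF-β, at 1.06, where 138 genes were, 102 of them higher. With a pseudocount of 0.5 in place of 1, *Hspb2* was over 2-fold by TGF-β too, at 1.20, where 196 genes were over 2-fold, and by GDF15 it stood at 1.46, where 71 were. Between the stimulated libraries, 0 members and 16 genes (0.103%) were over 2-fold. The members were chosen with these changes known, so the counts cannot be read against the background. The median change of the 6 members was -0.02 by GDF15 and 0.05 by TGF-β. That of all genes, unexpressed ones included, was 0 in both comparisons. Among genes whose mean FPKM reached 1 it was -0.03 by GDF15 and -0.07 by TGF-β. By GDF15 3 members were above 0 and 3 below, where 35.8% of all genes were above and 44.1% below. By TGF-β 4 were above and 2 below, where 32.4% of all genes were above and 47% below.

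**Figure D2:**
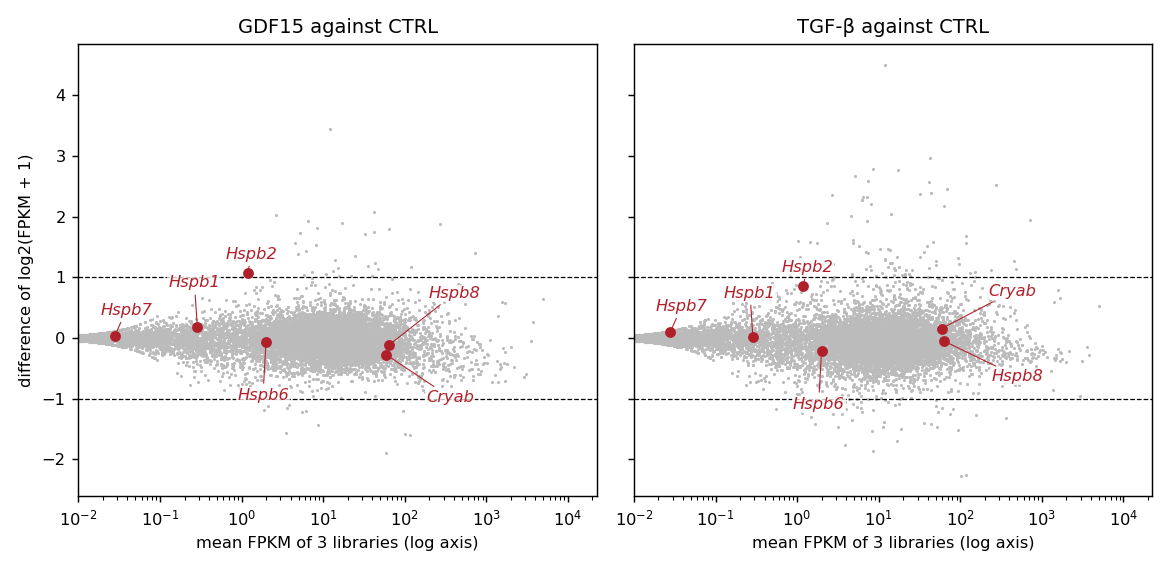
Change of each gene (y axis, difference of log2(FPKM + 1) against CTRL) against its mean FPKM over the 3 libraries (log axis), with the members in red, other genes in grey and the 2-fold criterion dashed; genes of the very lowest means lie left of the range drawn. *Hspb2* stood at 1.07 by GDF15, just over the line, and at 0.86 by TGF-β, just under it, while the other members lay between -0.27 and 0.18.

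*Hspb2* encodes a small heat shock protein of muscle that binds the myotonic dystrophy protein kinase. *Hspb2* had 0.336 FPKM without stimulation, 1.80 with GDF15 and 1.42 with TGF-β. CTRL was low and both stimulated libraries were higher. These values stood for about 4, 22 and 14 fragments, and the estimate of 3.54 in CTRL was not close to a whole number. On the log2 scale it stood at 1.07 with GDF15 and 0.86 with TGF-β. Of all genes, 26 had a larger positive change by GDF15 and 124 by TGF-β. The GDF15 value lay close to the criterion, where 8 genes were within 0.1 under it and 8 within 0.1 over it. Because the added 1 damps low values, the ratios of FPKM were larger, 5.37 for GDF15 over CTRL (1.82 to 21.4) and 4.22 for TGF-β over CTRL (1.33 to 17.6). The intervals span a more than 10-fold range, since CTRL rests on about 4 fragments. The stimulated libraries did not differ beyond counting error, with a ratio of TGF-β to GDF15 of 0.786 (0.372 to 1.61). The local spread of changes, the scaled median absolute deviation of the genes nearest in mean expression, was 0.22 by GDF15 and 0.27 by TGF-β.

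*Hspb2* lies at chr9:50751078-50752354 on the minus strand (GRCm38, GENCODE M21), head to head with *Cryab* at chr9:50751325-50756636 on the plus strand. The start of transcript Hspb2-201 is 614 bases from that of Cryab-201. The first, noncoding exon of Cryab-206 runs through the larger *Hspb2* exon, so that the genes share 252 exon bases, chr9:50751325-50751576, on opposite strands. This is 30.2% of the exon bases of *Hspb2* and 17.04% of those of *Cryab*. Among 50-base windows, the read length, 203 of 832 from *Hspb2* (24.4%) also occur in *Cryab* on the other strand. Whether the strand was used in counting is not given in the sources used here. Without it, reads of these bases cannot be told apart. The FPKM of *Cryab*, the gene with far more fragments, was lower in GDF15 than in CTRL while that of *Hspb2* was higher, and in TGF-β both were higher than in CTRL. The part of shared bases in the *Hspb2* values was not tested.

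**Figure D3:**
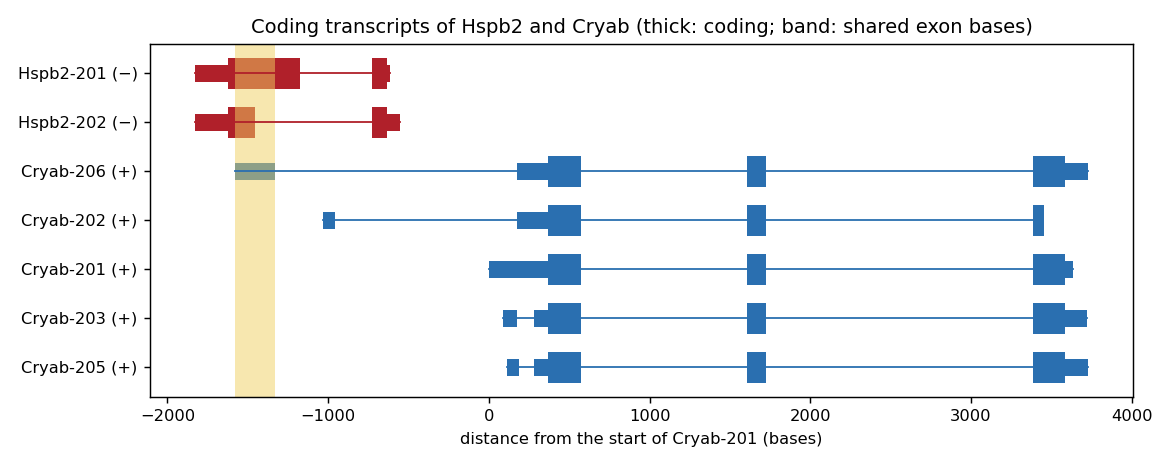
Coding transcripts of *Hspb2* (red, minus strand) and *Cryab* (blue, plus strand) in GENCODE M21, with distance from the start of Cryab-201 in bases on the x axis, thick boxes for coding exon parts, thin boxes for noncoding parts and a yellow band for exon bases shared by both genes. The 252 shared bases fall in the larger *Hspb2* exon and in the first exon of Cryab-206, and in no other *Cryab* transcript drawn.

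*Cryab* encodes αB-crystallin, a lens and muscle chaperone of desmin and other filaments. *Cryab* had 60.4 FPKM without stimulation, 49.8 with GDF15 and 67.4 with TGF-β, from about 1019, 971 and 1068 fragments. GDF15 was the lowest library and TGF-β the highest. On the log2 scale it stood at -0.27 with GDF15 and 0.16 with TGF-β. The FPKM ratio to CTRL was 0.824 (0.754 to 0.901) for GDF15 and 1.12 (1.02 to 1.22) for TGF-β, so both counting intervals left out 1. Between the stimulated libraries the ratio of TGF-β to GDF15 was 1.35 (1.24 to 1.48), a difference of 0.43, and 2.73% of all genes differed more. *Cryab* was the member for which the stimuli pointed in opposite directions with intervals that did not include 1. With the trend of transcript length removed, its change by GDF15 shrank to -0.05 and that by TGF-β grew to 0.32.

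*Hspb8* encodes a chaperone that works with the co-chaperone BAG3 in the removal of damaged filament proteins. It lies at chr5:116408491-116422864 on the minus strand. Its level was 66.0 FPKM without stimulation, 60.7 with GDF15 and 63.6 with TGF-β, from about 1962, 2106 and 1793 fragments. These were the most precise values of the family, and the 3 libraries were close to each other. The ratio to CTRL was 0.919 (0.864 to 0.978) for GDF15 and 0.964 (0.904 to 1.03) for TGF-β. The changes of -0.12 and -0.05 were exceeded in size by 39.8% and 59.9% of all genes. With the length trend removed they were -0.00 and 0.07, and the TGF-β value was also above 0 with a common upper quartile (0.016) or with the expression trend removed (0.023). The ratio of *Hspb8* to *Cryab* was 1.09 without stimulation, 1.22 with GDF15 and 0.944 with TGF-β.

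*Hspb6* encodes a chaperone that cAMP- and cGMP-dependent kinases phosphorylate in smooth muscle. It lies at chr7:30552178-30555443 on the plus strand. Its level was 2.19 FPKM without stimulation, 2.04 with GDF15 and 1.75 with TGF-β, or about 47, 51 and 35 fragments. TGF-β was the lowest library, but the counting intervals of all 3 overlapped. The ratio to CTRL was 0.932 (0.615 to 1.42) for GDF15 and 0.798 (0.50 to 1.26) for TGF-β. A difference within these bounds was not detectable at this depth. The change of -0.07 by GDF15 became 0.12 with the length trend removed, and that of -0.22 by TGF-β became -0.06. Its exons share 122 bases with *Proser3* and 3 bases with *Lin37*, both on the other strand, and 77 bases with the microRNA gene *Gm38670*. *Lin37* had 8.40 FPKM in the CTRL library, 7.61 in GDF15 and 7.12 in TGF-β.

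*Hspb1* encodes the stress-induced, phosphorylated member of the family that acts on actin filaments. It lies at chr5:135887919-135889563 on the plus strand. Its level was 0.229 FPKM without stimulation, 0.393 with GDF15 and 0.240 with TGF-β, or about 3, 6 and 3 fragments. The level of 3 fragments, taken as the floor of detection, was 0.223, 0.194 and 0.239 FPKM in the same order, so CTRL and TGF-β were at the floor. The ratio of GDF15 to CTRL was 1.72 with an interval from 0.366 to 10.6. Of the 1030 windows of 50 bases in its transcripts, 516 (50.1%) also occur in transcripts of the pseudogenes *Hsp25-ps1* or *Gm9817*, and 514 do not. How reads that match several places were counted is not given in the sources used here, so the level of *Hspb1* is uncertain.

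*Hspb7*, a heart and skeletal muscle member at chr4:141420779-141425311 on the plus strand, was listed at 0 in CTRL and had 0.0179 FPKM in GDF15 and 0.0655 in TGF-β. These stood for 0, 1 and 3 fragments. All libraries were at or under the floor of 3 fragments (0.0635, 0.0541 and 0.0667 FPKM), and no fold is given. Of the related genes, *Hspb3*, *Cryaa* and *Odf1* were listed at 0 in every library, and *Hspb9* had 0.102 FPKM in CTRL, about 1 fragment, and 0 in the others. *Hspb11*, which has a similar name but no α-crystallin domain, had 70.3, 59.5 and 72.9 FPKM in CTRL, GDF15 and TGF-β.

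Changes depended on transcript length in these libraries. Among genes whose mean FPKM reached 1, transcripts of up to 800 bases had a median of -0.37 by GDF15 and -0.22 by TGF-β, and those over 8000 bases one of 0.17 and 0.05. The longest coding transcripts of the members ran from 773 to 2769 bases. At the length of *Hspb2* (773 bases) the running median was -0.33 by GDF15 and -0.20 by TGF-β. Its own changes were 1.07 and 0.86. Relative to that trend, *Hspb2* stood at 1.40 by GDF15 and 1.06 by TGF-β, over the 2-fold criterion for both. Genes nearest to *Hspb2* in mean expression had medians of only -0.025 by GDF15 and -0.039 by TGF-β. Removing the full length trend may therefore overcorrect so low a gene, which was not tested. At the length of *Cryab* (1117 bases) the running median was -0.23 by GDF15, near its own change of -0.27. By TGF-β the running median there was -0.17, while *Cryab* stood at 0.16. At the length of *Hspb8* (1816 bases) it was -0.12 by both stimuli, against -0.12 and -0.05 for the gene. What set the length trend was not tested.

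**Figure D4:**
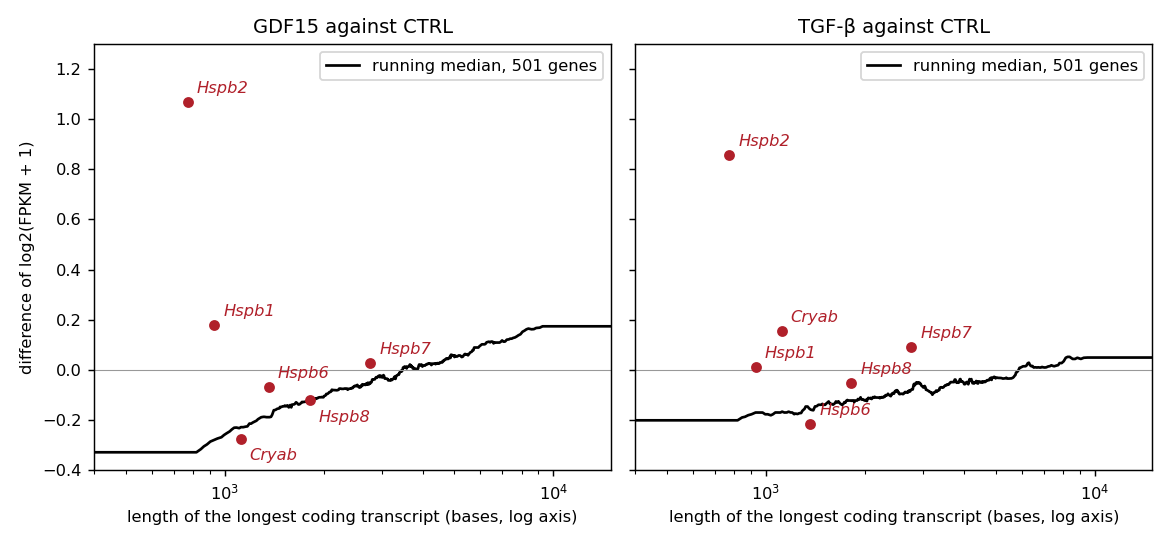
Running median of the change over neighbouring expressed genes (black line, y axis, difference of log2(FPKM + 1) against CTRL) along the length of the longest coding transcript (log axis), with the members in red. The line rose with length in both panels, *Hspb2* stood far above it in both, and *Hspb8* by GDF15 stood on it.

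Genes with the most similar pair of changes were sought among 9222 expressed genes (mean FPKM from 1), by Euclidean distance over both changes from 3 libraries. Nearest to *Hspb2* was *Vgll3*, a cofactor of TEAD transcription factors, with 13.04 FPKM without stimulation, 27.4 with GDF15 and 24.7 with TGF-β. Its changes were 1.02 and 0.87. The likeness holds on the log2(FPKM + 1) scale, while without a pseudocount *Vgll3* stood at 1.07 and 0.92 and *Hspb2* at 2.43 and 2.08. The next was *Svep1*, an extracellular matrix protein, with 14.95, 28.2 and 26.5 FPKM. Only 1 gene lay within 0.1 of *Hspb2*, while 38 did of *Cryab*, 980 of *Hspb6* and 1022 of *Hspb8*. Nearest to *Cryab* were *Vegfa*, the vascular growth factor, with 27.0, 22.6 and 30.2 FPKM, and *Fbl* (fibrillarin, a nucleolar methyltransferase) with 21.1, 17.1 and 24.0 FPKM. Nearest to *Hspb6* were *Ifi202b* and *Ezh1*, and nearest to *Hspb8* were *Sra1* and *Ranbp1*, among very many about as near.

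The heat shock regulators and partner chaperones showed no change over 2-fold. Of 3 heat shock factors, 1 was above 0 and 2 below by each stimulus, with a median of -0.28 by GDF15 (-0.29 to -0.19 over the alternative settings) and -0.20 by TGF-β (-0.21 to -0.083). *Hsf1*, the main inducer of heat shock genes, had 34.7 FPKM without stimulation, 28.4 with GDF15 and 30.1 with TGF-β, and *Hsf2* had 5.89, 6.61 and 7.15. The 19 heat shock response chaperones were all expressed. By GDF15 9 were above 0 and 10 below, with a median of -0.01 (0.024 with a common upper quartile and 0.062 with the expression trend removed), while 55.6% of all expressed genes were below 0. By TGF-β 4 were above and 15 below, with a median of -0.13, while 62.8% of those genes were below 0. That median was -0.064 with a common upper quartile, -0.060 with the expression trend removed and -0.033 with the length trend removed. Their highest members were *Hsp90ab1*, with 709, 729 and 711 FPKM, and *Hspa8*, with 558, 511 and 437. The inducible genes *Hspa1a* (3.04, 2.79 and 1.91 FPKM) and *Hspa1b* (4.44, 3.76 and 3.15), which are near-identical copies and therefore uncertain singly, were lowest in TGF-β. *Dnajb1*, an HSP70 co-chaperone, had 19.8, 20.6 and 19.0 FPKM.

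Of all expressed genes, 55.6% were below 0 by GDF15 and 62.8% by TGF-β. The partners of *Hspb8* in chaperone-assisted selective autophagy were 4 of 5 below 0 by each stimulus, with medians of -0.13 by GDF15 (-0.14 to 0.026 over the settings) and -0.23 by TGF-β (-0.24 to -0.10). Among these partners, *Hspa8* and *Bag3* are also heat shock response chaperones and were counted in that list as well. *Bag3* had 45.8 FPKM without stimulation, 41.0 with GDF15 and 38.0 with TGF-β, and the cargo receptor *Sqstm1* had 303, 287 and 285. Of 11 kinases that act on small heat shock proteins, 6 were above 0 and 5 below by each stimulus, with medians of 0.02 and 0.00 and none over 0.04 in any setting. *Mapkapk2*, the kinase of *Hspb1*, had 31.7, 32.1 and 33.2 FPKM, and *Prkaca* had 38.0, 35.1 and 34.2. Of 9 cytoskeletal partners, 5 were above 0 by GDF15 and 6 by TGF-β, with medians of 0.03 by both. With the expression trend removed these were 0.13 and 0.13. *Vim*, the intermediate filament protein of fibroblasts, had 2245, 2018 and 1700 FPKM, and *Actb* had 690.3, 681 and 703. *Des*, the muscle filament protein that *Cryab* protects, had 0.220, 0.212 and 0.230 FPKM.

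The smooth muscle contractile genes included the largest changes of all lists. Of these 9 genes, 2 were over 2-fold higher by both stimuli, and the medians were 0.06 by GDF15 and 0.04 by TGF-β. Among the 6 genes whose mean FPKM reached 1 they were 0.35 and 0.32, and without a pseudocount the TGF-β median was 0.58. *Acta2*, smooth muscle actin, had 20.4 FPKM without stimulation, 73.6 with GDF15 and 96.1 with TGF-β, changes of 1.80 and 2.18. *Tagln*, transgelin, had 2.20, 8.27 and 13.8 FPKM, changes of 1.53 and 2.21. By mean FPKM over the 3 libraries, the most abundant genes of the list were *Tpm1*, with 77.1, 80.6 and 78.6 FPKM, and *Tpm2*, with 90.2, 67.8 and 61.0. Of serum response factor and its 3 cofactors, *Myocd* was listed at 0 in all libraries, 1 gene was above 0 and 2 were below by each stimulus. *Srf* had 9.65, 8.69 and 7.40 FPKM, and *Mkl1* had 13.3, 12.6 and 10.9. The medians of these 4 genes were -0.04 and -0.13, and without *Myocd* -0.071 and -0.26.

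**Figure D5:**
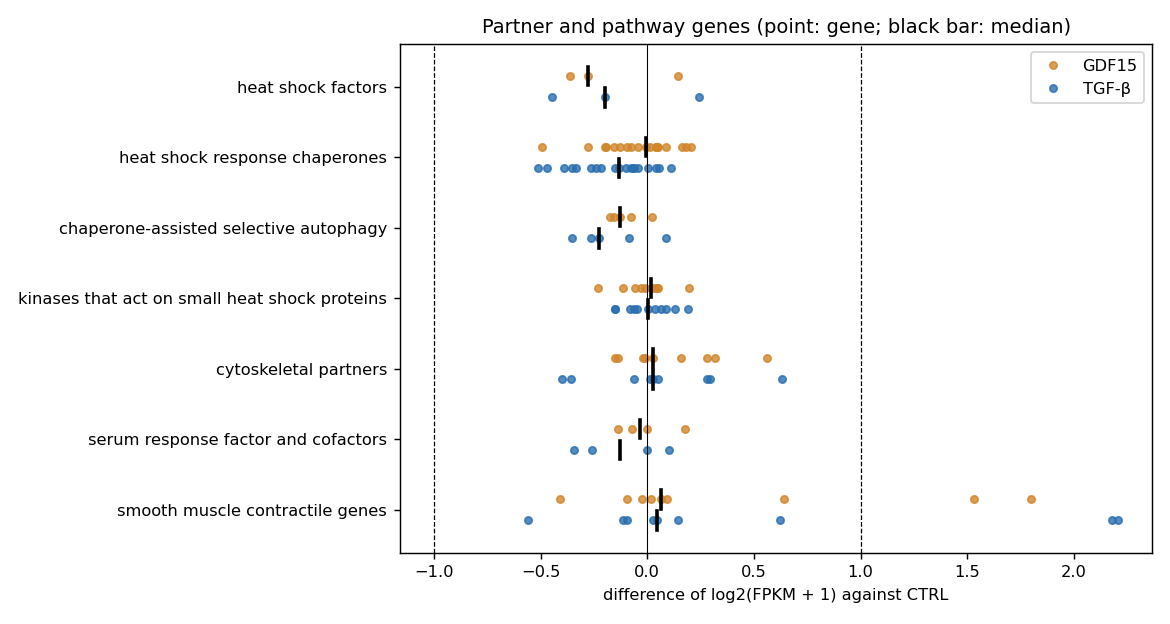
Change against CTRL (x axis, difference of log2(FPKM + 1)) of each gene in 7 partner and pathway lists, GDF15 in orange and TGF-β in blue, with black bars for medians and dashed lines for the 2-fold criterion. Points over 2-fold occurred in the smooth muscle list, with *Acta2* at 1.80 and 2.18 and *Tagln* at 1.53 and 2.21.

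The skeletal muscle markers summed to 19.2 FPKM without stimulation, 16.1 with GDF15 and 14.3 with TGF-β. The cardiac markers summed to 1.08, 1.82 and 2.20 FPKM, with *Tnni3*, *Myl7*, *Actn2* and *Ryr2* at 0 in all libraries, and most of that sum was *Nppa* (0.769, 0.806 and 0.985) and *Actc1* (0.315, 1.004 and 1.20). The difference between the sums was mostly that of *Actc1*. The part of either list in the *Hspb2* values was not tested.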

How the data were processed

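NIH3T3 RNA was sequenced by the authors from TruSeq Stranded mRNA libraries in single-end mode at 50 bases, 1 pooled library per treatment. The submitters' processing notes name TopHat 1.3.2, Bowtie 0.12.9, Cufflinks 2.0.2 and mm10. The annotation and the use of strand in counting are not given in the sources used here. The deposited values are FPKM of protein-coding genes reviewed in UniProt, as the authors calculated them. Changes are on the log2(FPKM + 1) scale, on which low genes appear to change less than they do. Depth came from steps of single fragments in genes of at least 600 bases: 76.7, 77.5 and 77.2% of low values were whole within 0.15 fragments. Coordinates, lengths and overlaps came from GENCODE M21 (GRCm38), matched to 15462 of 15554 rows. Named genes were the members, for each expressed member the 2 nearest genes, list members over 2-fold, the 2 most abundant of each list, genes with overlapping exons, and *Hsf1*, *Bag3*, *Mapkapk2*, *Hspa1a*, *Hspa1b* and *Dnajb1*. *Des*, *Lum*, *Cd68*, *Hspb3*, *Cryaa*, *Odf1*, *Myocd*, the muscle markers and the pseudogenes that share sequence with *Hspb1* were named in addition, with their values seen. Members and lists were chosen with earlier results of these data known. Alternatives were other pseudocounts, a minimum mean FPKM of 1, a common upper quartile, and removal of expression or length trends. Depth fits and running medians were tested on simulated data. Values were computed in Python 3.11.15 (scipy 1.17.1, pandas 2.3.3, numpy 2.4.6) and drawn with matplotlib 3.10.9.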

Additional observations from a re-analysis of the deposited data

How the results depend on the processing

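No paired analysis was possible because the treatments have 1 pooled library each, and leaving out a library would remove its treatment. Leaving out the minimum mean FPKM, which cannot move the value of a gene, 56 of 60 changes of members under the alternatives moved by less than the distance from the centre to the end of the counting interval of the log2 ratio, which is wide for *Hspb1* and *Hspb2*. The 4 others were *Hspb8* and *Cryab* by each stimulus, with the length trend removed. *Hspb7* has no such interval and moved by over 0.1 in 2 of 10 cases, both with a pseudocount of 0.1. *Hspb2* ranged from 1.07 to 2.43 by GDF15 and from 0.86 to 2.08 by TGF-β, so that by TGF-β 1 member was over 2-fold with pseudocounts of 0.5 and 0.1, without a pseudocount and with the length trend removed. The number of all genes over 2-fold by GDF15 was 71 with a pseudocount of 0.5, 315 with 0.1 (139 higher) and 589 without one (252 higher). By TGF-β it was 196 with 0.5 (116 higher), 138 with the length trend removed (102 higher), 489 with 0.1 (243 higher) and 789 without one (417 higher). Of 108 list medians, 95 moved by less than 0.1. The smooth muscle median by TGF-β was 0.29 with a pseudocount of 0.1, 0.58 without one and 0.32 at a mean FPKM of at least 1, where it was 0.35 by GDF15. The median of serum response factor and its cofactors by TGF-β was -0.28 without a pseudocount and -0.26 at a mean of at least 1. With the expression trend removed, the autophagy median by GDF15 was 0.026, and the cytoskeletal medians were 0.13 by GDF15 and 0.13 by TGF-β. With the length trend removed, the median of the related and similarly named genes was 0.20 by GDF15 and 0.17 by TGF-β. Both are the value of *Cryaa*, listed at 0 in every library, so they hold only the removed trend and no change of a gene. In that setting the median of the heat shock factors by TGF-β was -0.083, and the autophagy median by TGF-β was -0.10. The causes of the other shifts were not tested. *Hspb7* had no value without a pseudocount, and *Hspb1* and *Hspb7* had none at a mean of at least 1. Depth limits *Hspb1*, *Hspb2* and *Hspb7* most, with at most 22 fragments in any library.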
